A study of Mus musculus with 22 samples.

Results

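The genes described here are the receptors of the interleukin-17 (IL-17) cytokine family and 3 genes that act directly below them. They were taken by name: Il17ra, Il17rb, Il17rc, Il17rd and Il17re for the receptors, Traf3ip2 for the adaptor, and Nfkbiz and Zc3h12a for products of the pathway. All 8 were found, each as 1 of the 55487 genes in the count tables. Counts of RNA sequencing reads came from 22 mouse libraries in 8 groups. Whole dorsal root ganglia (DRG), the clusters of sensory neuron cell bodies beside the spinal cord, were taken from T10 to L5 of wild-type (WT) mice and of Postn knock out (KO) mice given vehicle (3 libraries per genotype) or imiquimod (IMQ, 2 libraries per genotype) for 5 days. DRG neuron cultures of both genotypes were kept 72 h in medium without added protein (control) or with recombinant POSTN (rPOSTN), with 3 libraries in each of the 4 culture groups. IMQ is a TLR7 agonist that gives psoriasis-like skin inflammation, and Postn encodes periostin, a secreted matrix protein. The sources used here do not give the deleted Postn exons, any Cre or promoter, the age and sex of the mice, or whether a library holds pooled animals. The labels do not say whether replicates are separate animals or separate cultures, so each p measures the spread between libraries, which may be technical.

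IL-17 cytokines signal through paired receptors. IL-17RA (Il17ra) is the shared chain, which joins IL-17RC (Il17rc) to bind IL-17A and IL-17F, IL-17RB (Il17rb) to bind IL-25, and IL-17RE (Il17re) to bind IL-17C. The adaptor Act1 (Traf3ip2) docks on the receptor tails and passes the signal through TRAF6 to NF-kB, MAP kinases and C/EBP factors. Among the genes induced are Nfkbiz, whose nuclear protein IκBζ is a cofactor for a second wave of transcription, and Zc3h12a, whose protein Regnase-1 degrades inflammatory mRNAs and damps the response. IL-17 made by T cells is a main driver of psoriatic skin, and IL-17 receptors have been described on sensory neurons.

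Il17re and Il17rc lie next to each other on chromosome 6, on the same strand with no coding gene between, and they differed in opposite directions between cultures and ganglia. Their start regions are shown for that reason, with those of Il17rb and Zc3h12a, which differed in opposite directions as well. Each is the RefSeq window of 250 bases before to 50 bases after the start site (build GRCm38.p6), printed 5′ to 3′ on the gene's strand, with GC boxes (GGGCGG, or CCGCCC where the box is on the other strand) and the AP-1 motif (TGANTCA) in capitals. Such windows were at hand for 5 of the 8 genes, and Il17ra, Traf3ip2 and Nfkbiz had none.
Il17re, chr6:113458521-113458820, plus strand: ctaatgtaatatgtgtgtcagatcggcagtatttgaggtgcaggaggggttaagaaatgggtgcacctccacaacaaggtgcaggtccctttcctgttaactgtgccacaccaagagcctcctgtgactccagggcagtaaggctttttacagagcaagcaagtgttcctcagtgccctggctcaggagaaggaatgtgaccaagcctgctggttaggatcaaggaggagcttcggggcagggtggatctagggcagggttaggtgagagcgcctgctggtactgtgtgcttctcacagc
Il17rc, chr6:113471205-113471504, plus strand: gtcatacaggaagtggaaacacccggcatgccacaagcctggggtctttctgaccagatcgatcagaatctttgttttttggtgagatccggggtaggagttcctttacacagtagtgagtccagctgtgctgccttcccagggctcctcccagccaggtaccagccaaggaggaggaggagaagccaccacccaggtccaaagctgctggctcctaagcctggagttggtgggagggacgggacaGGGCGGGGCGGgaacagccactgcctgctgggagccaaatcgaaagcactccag
Il17rb, chr14:30008847-30009146, minus strand: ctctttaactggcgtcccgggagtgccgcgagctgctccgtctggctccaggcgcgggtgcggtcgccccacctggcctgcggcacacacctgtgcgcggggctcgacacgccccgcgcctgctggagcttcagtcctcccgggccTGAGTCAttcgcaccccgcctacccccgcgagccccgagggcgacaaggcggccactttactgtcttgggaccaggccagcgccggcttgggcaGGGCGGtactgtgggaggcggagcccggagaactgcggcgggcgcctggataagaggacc
Zc3h12a, chr4:125127832-125128131, minus strand: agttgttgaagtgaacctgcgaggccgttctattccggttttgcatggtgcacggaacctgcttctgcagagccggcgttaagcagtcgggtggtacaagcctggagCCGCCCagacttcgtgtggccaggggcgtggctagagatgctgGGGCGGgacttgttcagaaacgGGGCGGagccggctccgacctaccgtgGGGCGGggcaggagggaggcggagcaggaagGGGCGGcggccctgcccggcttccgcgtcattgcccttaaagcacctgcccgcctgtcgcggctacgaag

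On both strands, the GC box was found 0 times for Il17re, 2 times for Il17rc (overlapping each other), 1 time for Il17rb and 5 times for Zc3h12a. The Il17rd window held 3. Of the 32851 RefSeq windows of the same length, 35.7% held at least 1 GC box. Il17re had 3 CG dinucleotides and Il17rc 7, against 32 for Il17rb, 19 for Il17rd and 27 for Zc3h12a, where the median window held 7. The AP-1 motif was found for Il17rb only, 104 bases before the start site, and 7.81% of all windows held it. None of the 5 windows held the NF-kB consensus, which 4.51% of windows hold, or TATAAA, which 13.6% hold. These matches describe letters in the windows and are not binding sites.

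Libraries held 16.7 to 22.3 M (mega) counts in the ganglia and 18.3 to 24.1 M in the cultures. Levels are counts per M (CPM) on library sizes scaled together over all 22 libraries. Postn, the targeted gene, was at 22.3, 28.1 and 23 CPM in WT vehicle ganglia and 3.67 to 7.93 CPM in all 5 KO ganglia. In culture it was at 642 to 970 CPM in WT and 65.8 to 416 CPM in KO, where both libraries of replicate 3 (373 and 416 CPM) stood above the other 4 (65.8 to 100 CPM). Xist, the RNA that silences an X chromosome in female cells, was at 210 to 252 CPM in 9 ganglia and at 0.188 CPM in WT IMQ 2. WT cultures 1 and 2 lacked it too (0.425 to 0.82 CPM), with and without rPOSTN. KO vehicle ganglion 1 had the highest sums of 7 neutrophil marker genes (285 CPM, against 23.5 to 121 CPM in the other ganglia) and of 5 erythroid genes (497 CPM, against 21.6 to 149 CPM). Neuron markers were abundant in every library (10 genes summing to 11213 to 13661 CPM in ganglia and 4996 to 6771 CPM in cultures). Both preparations also held Schwann cell, satellite glia, fibroblast, endothelial and macrophage markers.

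Il17ra, the shared receptor chain, was low in ganglia and several times higher in culture. In WT vehicle ganglia it was at 3.72, 4.21 and 4.69 CPM, and in WT control cultures at 35.3, 33.1 and 34.3 CPM. KO libraries were at 4.15, 4.21 and 4.36 CPM in vehicle ganglia and 26.8, 28.2 and 25.7 CPM in control cultures. No culture library came near a ganglion library: the lowest culture value was 25.6 CPM and the highest ganglion value 6.89 CPM. The log2 difference, culture minus ganglion, was 3.03 ± 0.13 (SE) in WT (edgeR quasi-likelihood test, adjusted p = 4.00e-14) and 2.73 ± 0.13 in KO (adjusted p = 1.67e-13). In the order of the 8 groups, WT cultures came first with 34.9 CPM with rPOSTN and 34.2 CPM without, then KO cultures with 29.9 and 26.9 CPM, then WT and KO IMQ ganglia with 6.38 and 6.30 CPM, and last KO and WT vehicle ganglia with 4.24 and 4.20 CPM. Within each of these 4 pairs of groups the libraries overlapped. Between the pairs, the neighbouring groups (WT control and KO rPOSTN cultures, KO control cultures and WT IMQ ganglia, KO IMQ and KO vehicle ganglia) did not overlap.

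**Figure D1:**
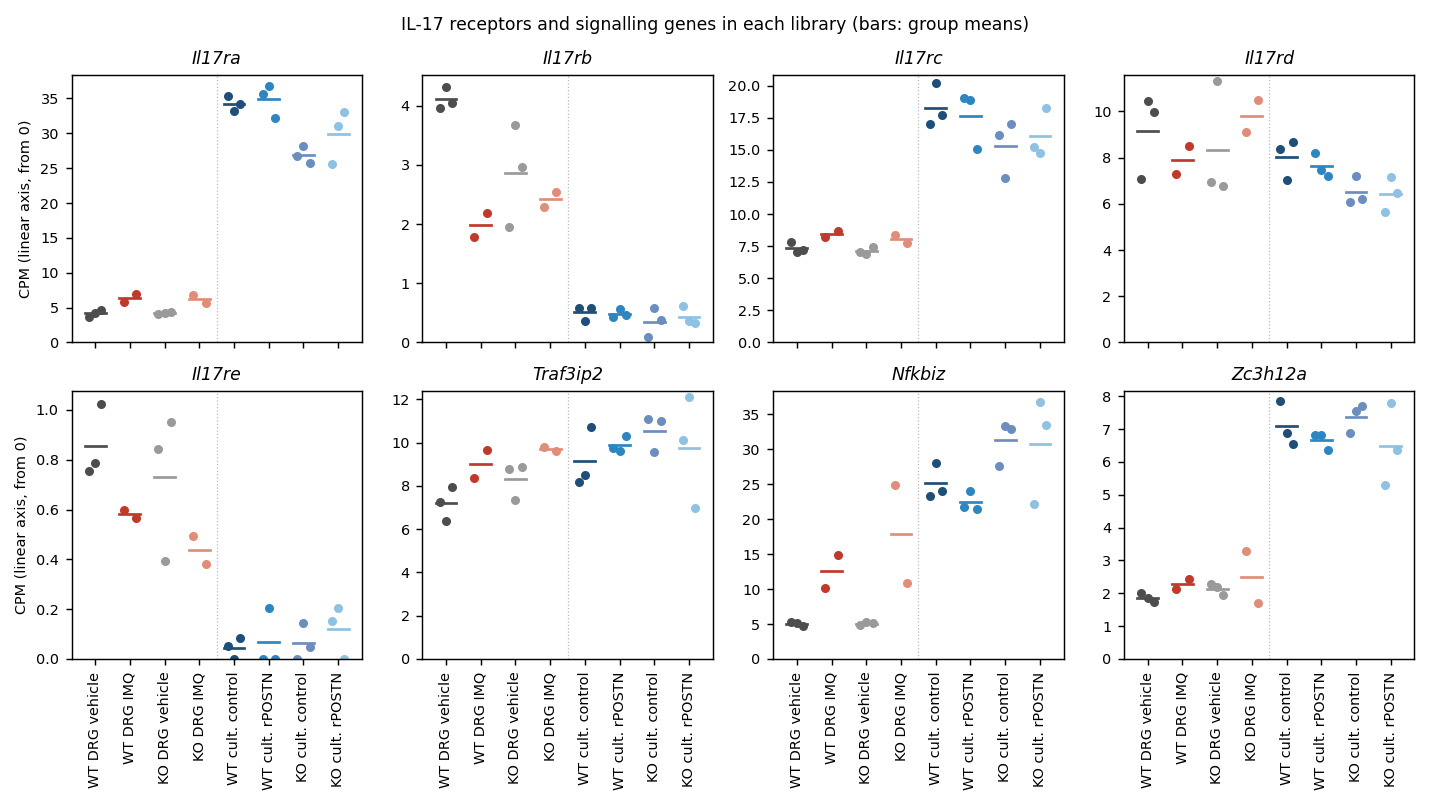
Levels of the 8 genes in each of the 22 libraries (vertical axes, CPM, linear from 0). Each point is a library, short bars are group means, DRG means ganglion and the dotted line parts ganglia from cultures. Il17ra stayed below 6.89 CPM or at it in the ganglia and was at 25.6 CPM or more in the cultures, while Il17rb and Il17re stood lower in the cultures.

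Across all genes, 67.5% of 19546 differed between WT control cultures and WT vehicle ganglia at an adjusted p below 0.05, the threshold for every call here (33.9% higher and 33.6% lower in culture). In KO the share was 68.6% (35.3% higher and 33.3% lower). Against that background, 6 of the 8 genes were called in WT, 4 higher and 2 lower, and 7 of 8 in KO, 5 higher and 2 lower. Libraries of the 2 groups did not overlap for 7 of the 8 genes in each genotype, all but Il17rd, where 74.6% of all genes in WT and 69.4% in KO did not overlap. These shares are near those of all genes and are no result about the 8 genes. Il17re did not pass the filter on low counts in cultures alone and entered these tests through the ganglia, where it is high. Il17rb did not pass it in KO cultures alone, but did in the fit of all 12 cultures. Cultures and ganglia were counted in separate tables, and preparation and table cannot be told apart. RNA from more cells of a type and more RNA per cell cannot be told apart either, in these or any of the bulk samples below.

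The cell type markers moved between the same groups. The 10 neuron markers summed to 11213 to 12554 CPM in WT vehicle ganglia and 5439 to 5680 CPM in WT control cultures. The 7 Schwann cell markers went from 10537 to 16015 CPM down to 2834 to 3535 CPM, and the 6 endothelial markers from 74.9 to 96.8 CPM up to 227 to 252 CPM. The 11 macrophage markers summed to 193 to 246 CPM and 185 to 212 CPM, but 8 of them were called lower in WT cultures and 1, Cd68, higher (median log2 difference -1.77), and in KO 9 were lower and 1 higher (median -2.48). The 8 fibroblast markers were at 1641 to 1955 CPM in WT vehicle ganglia and 975 to 1119 CPM in WT control cultures. In KO they were at 1285 to 1532 CPM and 670 to 1332 CPM, which overlap. By gene, 2 fibroblast markers were called higher and 2 lower in WT cultures (median log2 difference -0.56). In KO 3 were higher and 2 lower (median 0.13). The Schwann cell markers were mixed too, with 5 lower and 2 higher in WT cultures, as were the endothelial markers, with 4 higher and 1 lower. The part of these shifts in the values of the IL-17 receptor genes was not tested.

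Il17rc, the partner of Il17ra for IL-17A and IL-17F, was also higher in culture, by less. It was at 7.81, 7.01 and 7.22 CPM in WT vehicle ganglia and 17, 20.2 and 17.7 CPM in WT control cultures. In KO the values were 7.08, 6.90 and 7.44 CPM against 16.2, 12.8 and 17 CPM. The log2 differences were 1.32 ± 0.14 in WT (adjusted p = 3.40e-08) and 1.17 ± 0.14 in KO (adjusted p = 2.10e-07), with no overlap between ganglion and culture libraries.

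The ratio of the 2 chains therefore differed between preparations. Scaled by exon length, so that genes can be compared, Il17rc stood above Il17ra in every group (2.75 against 0.485 CPM per kb in WT vehicle ganglia, and 6.85 against 3.95 CPM per kb in WT control cultures). Before scaling, Il17rc was at 7.35 against 4.20 CPM in WT vehicle ganglia, but at 18.3 against 34.2 CPM in WT control cultures. The order in cultures thus rests on the annotated exon lengths used (2.67 kb for Il17rc and 8.66 kb for Il17ra). Il17ra per Il17rc on this scale was 0.177 ± 0.0276 (SD, n = 3) in WT vehicle and 0.183 ± 0.00412 (n = 3) in KO vehicle ganglia. With IMQ the ratios were 0.221 and 0.244 in the WT libraries and 0.227 and 0.254 in the KO libraries, all above the 6 vehicle libraries (0.147 to 0.200). In the 12 culture libraries they lay between 0.466 and 0.679.

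Il17rb, the IL-25 receptor chain, was lower in culture. It was at 3.97, 4.32 and 4.04 CPM in WT vehicle ganglia and 0.584, 0.368 and 0.59 CPM in WT control cultures (32 counts over the 3 libraries), a log2 difference of -2.97 ± 0.36 (adjusted p = 3.20e-07). KO libraries had 1.95, 3.67 and 2.96 CPM in ganglia and 0.0936, 0.582 and 0.378 CPM in cultures (22 counts), a log2 difference of -2.96 ± 0.38 (adjusted p = 7.32e-07). In KO cultures alone Il17rb did not pass the filter on low counts, though it passed in the fit of all 12 cultures. Pooled over the 3 libraries of each group, 158 reads in KO ganglia stood against 22 in KO cultures. The ratio was 8.45, with a 95% exact interval from 5.39 to 13.9 for counting error only. Every culture library was below every ganglion library (0.61 CPM at most against 1.79 CPM at least). The annotation places Il17rb across part of Actr8 on the opposite strand, and the strand setting of the read counting is not given in the sources used here, so reads in the shared stretch are uncertain.

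Il17re, the IL-17C receptor chain, was close to the limit of detection. Ganglion libraries held 6 to 19 reads of it and culture libraries 0 to 5, with 5 of the 12 cultures at 0. WT vehicle ganglia were at 0.756, 0.785 and 1.02 CPM and WT control cultures at 0.0531, 0 and 0.0843 CPM. Pooled over the 3 libraries of each group, 45 reads in WT ganglia stood against 3 in WT cultures, a ganglion level 17.7 times that of culture with a 95% exact interval from 5.67 to 88.9 for counting error only. In KO, 38 reads stood against 4, a ratio of 11.2 (4.02 to 43.1). The fitted log2 differences were -3.97 ± 0.89 (adjusted p = 0.000536) and -3.32 ± 0.86 (adjusted p = 0.00193). Since Il17re passed the filter only through its ganglion reads, these tests add nothing to the read counts.

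Il17rd, a more distant family member that can also modulate growth factor signalling, had similar levels in both preparations. It ranged from 6.77 to 11.3 CPM in the 10 ganglion libraries and from 5.64 to 8.68 CPM in the 12 cultures. The log2 differences, culture minus ganglion, were -0.18 ± 0.19 in WT (adjusted p = 0.409) and -0.30 ± 0.19 in KO (adjusted p = 0.170), neither of them called. The KO difference was called (-0.39, adjusted p = 0.0242) when a trend of gene length per library was taken out.

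Traf3ip2, the adaptor, differed little between preparations. WT vehicle ganglia were at 7.24, 6.39 and 7.93 CPM and WT control cultures at 8.17, 8.52 and 10.7 CPM (log2 difference 0.36 ± 0.17, adjusted p = 0.0731). KO vehicle ganglia were at 8.76, 7.34 and 8.89 CPM and KO control cultures at 11.1, 9.55 and 11 CPM (0.41 ± 0.17, adjusted p = 0.0390). The KO difference passed the threshold by a small margin. Over the 12 settings tried its adjusted p ran from 0.0342 to 0.191, and 9 of them did not call it. Among these were the fits without KO vehicle ganglion 1 (0.0568), KO vehicle ganglion 2 (0.141), KO control culture 1 (0.100) and KO control culture 3 (0.0879). Traf3ip2 overlaps 2 antisense genes in the annotation, whose reads cannot be told apart from its own if strand was not used.

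Nfkbiz and Zc3h12a, the products of the pathway, were both higher in culture. Nfkbiz was at 5.35, 5.16 and 4.69 CPM in WT vehicle ganglia and 23.3, 28.1 and 24 CPM in WT control cultures (log2 difference 2.32 ± 0.24, adjusted p = 2.71e-08). In KO it was at 4.87, 5.24 and 5.09 CPM against 27.6, 33.3 and 32.9 CPM (2.69 ± 0.24, adjusted p = 2.73e-09). Zc3h12a was at 2.02, 1.85 and 1.73 CPM in WT vehicle ganglia and 7.85, 6.89 and 6.53 CPM in WT control cultures, a log2 difference of 1.93 ± 0.21 (adjusted p = 5.65e-08). The KO libraries were at 2.27, 2.2 and 1.96 CPM against 6.88, 7.56 and 7.70 CPM (1.85 ± 0.20, adjusted p = 7.88e-08). For both genes the control cultures did not overlap with the vehicle ganglia.

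**Figure D2:**
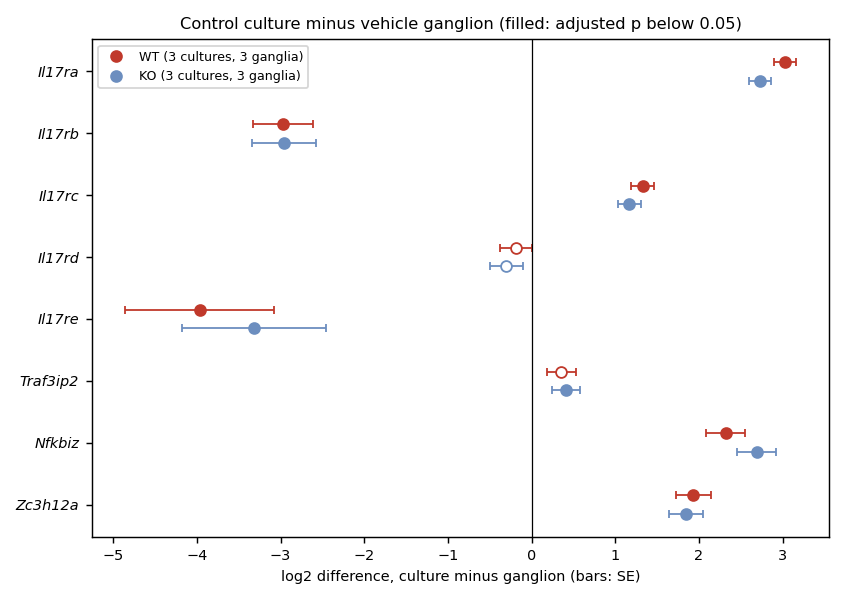
Log2 difference of each gene, control culture minus vehicle ganglion (horizontal axis), with its SE, in WT (red) and KO (blue), 3 libraries per group. Filled points passed an adjusted p below 0.05: Il17ra (3.03 and 2.73), Nfkbiz, Zc3h12a and Il17rc lay above 0, and Il17rb and Il17re below 0, in both genotypes. Il17re entered these tests through its ganglion reads, and Il17rb did not pass the filter on low counts in KO cultures alone.

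**Figure D3:**
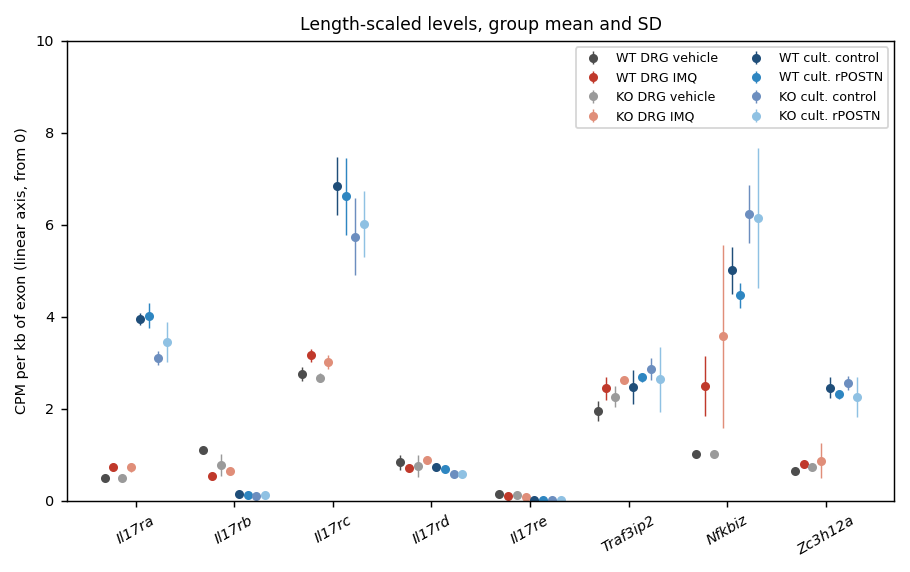
Group means of the 8 genes in CPM per kb of exon (vertical axis, linear from 0), with SD (2 or 3 libraries per group), a colour for each group. In WT vehicle ganglia Il17rc (2.75) and Traf3ip2 (1.95) were the highest of the 8. In WT control cultures these were Il17rc (6.85) and Nfkbiz (5.01), and in KO control cultures Nfkbiz (6.24) and Il17rc (5.74).

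In the wider pathway, counts are to be read against the shares of all genes called higher and lower in culture, 33.9% and 33.6% in WT and 35.3% and 33.3% in KO. Of 32 relay genes between receptor and nucleus, 24 were higher and 1 lower in WT cultures (median log2 difference 0.64, against 0.01 for all genes tested), and 22 higher and 1 lower in KO (median 0.67, against 0.05). Among them were Nfkb2, an NF-kB subunit gene (2.86 ± 0.16 in WT, from 6.91 to 49.9 CPM), and Cebpb and Cebpd, which encode the C/EBP factors of this pathway (3.46 ± 0.21 and 2.91 ± 0.22 in WT). Ikbkg, the regulatory subunit gene of the IκB kinase, was higher by 1.30 ± 0.10 in WT.

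Of 16 genes listed as inhibitors of the pathway, 8 were higher and 1 lower in WT cultures, and 10 higher and 2 lower in KO. Arid5a was on that list, but its product is known to stabilise some of the mRNAs that Regnase-1 degrades, which is no inhibition. It was higher by 1.76 ± 0.09 in WT and 1.84 ± 0.09 in KO. Of 22 tested genes known as IL-17 targets, 13 were higher and 5 lower in WT cultures, and 15 higher and 5 lower in KO. Icam1, an adhesion molecule for leukocytes, was at 3.88 CPM in WT vehicle ganglia and 36.8 CPM in WT control cultures (3.25 ± 0.14), and Ptgs2, the gene of cyclooxygenase-2, was higher by 4.55 ± 0.35. Of 12 receptors and adaptors of other cytokines that feed the same relay, 7 were higher and 2 lower in each genotype, Tnfrsf1a, a TNF receptor gene, by 2.22 ± 0.14 in WT.

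IMQ against vehicle asks how the ganglion responds to IMQ given to the mouse. In WT ganglia none of the 8 genes was called, where 1.30% of 17197 genes were, and in KO ganglia 1 of 8, Nfkbiz, where 1.10% were. Nfkbiz rose in KO from 4.87, 5.24 and 5.09 CPM with vehicle to 25 and 10.9 CPM with IMQ, a log2 difference of 1.82 ± 0.30 (adjusted p = 0.0212). In WT it went from 5.35, 5.16 and 4.69 CPM to 10.2 and 14.9 CPM (1.31 ± 0.31, adjusted p = 0.103). In both genotypes each IMQ library was above each vehicle library.

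The call of Nfkbiz in KO rested on few libraries. KO IMQ 1 (25 CPM) stood well above KO IMQ 2 (10.9 CPM), and without KO IMQ 1 the log2 difference was 1.10 (adjusted p = 0.137). The call was also lost without KO vehicle 1 (adjusted p = 0.0575), KO vehicle 2 (0.0605) or KO vehicle 3 (0.106), and in a fit of the 2 groups alone (0.135). In WT the call was made by 3 of the other settings: no filter on low counts (adjusted p = 0.0221), DESeq2 (0.00624) and a fit of the 2 groups alone (0.0278). Without WT IMQ 2, the library without Xist, the WT difference was 1.01 (adjusted p = 0.760).

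The difference between the 2 IMQ effects on Nfkbiz, KO minus WT, was 0.52 ± 0.44 (adjusted p = 0.999), and it was -0.21 without KO IMQ 1. No effect of IMQ was shown to differ between genotypes for any of the 8 genes. None of the 17197 genes was called in that test (0%, 364 at an unadjusted p below 0.05, and 5 called by DESeq2).

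Several other genes changed with IMQ in the same ganglia. The 11 macrophage markers summed to 193 to 246 CPM with vehicle and 713 to 796 CPM with IMQ in WT, and to 199 to 288 CPM and 568 to 621 CPM in KO. All 11 genes had a positive difference without overlap in both genotypes, where 21.5% of all genes in WT and 23.8% in KO did not overlap. Of the 11, 9 were called in WT and 8 in KO, where 1.30% and 1.10% of all genes were. KO IMQ 1 also had more than KO IMQ 2 of the neutrophil markers (74.1 against 29.2 CPM), of Il1b (2.54 against 0.764 CPM) and of Tnf (0.867 against 0.0636 CPM), both inflammatory cytokine genes. The part of macrophages or of that library's other genes in the value of Nfkbiz was not tested.

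Il17ra was at 5.86 and 6.89 CPM in WT IMQ and 6.87 and 5.73 CPM in KO IMQ ganglia. All 4 were above the 6 vehicle libraries (3.72 to 4.69 CPM), but neither genotype passed the threshold (0.60 ± 0.17, adjusted p = 0.200, and 0.57 ± 0.17, adjusted p = 0.279). The IMQ effects on Il17ra differed by -0.03 ± 0.24 between genotypes.

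Il17rb had the lowest log2 difference of the 8 with IMQ in WT. It was at 3.97, 4.32 and 4.04 CPM with vehicle and 1.79 and 2.19 CPM with IMQ (-1.04 ± 0.26, adjusted p = 0.132, with 0.0829 to 0.667 over the other settings). KO ganglia were at 1.95, 3.67 and 2.96 CPM with vehicle and 2.29 and 2.55 CPM with IMQ (-0.25 ± 0.26, adjusted p = 0.725), where the libraries overlapped. The difference of the effects was 0.79 ± 0.36 (adjusted p = 0.999). The sums of the 7 Schwann cell markers also were lower with IMQ. In WT they were 10537 to 16015 CPM with vehicle and 5758 to 8041 CPM with IMQ. In KO they were 7125 to 8535 CPM with vehicle and 5758 to 6326 CPM with IMQ. None of the 7 markers had a positive difference in either genotype. Only 1 was called lower in WT and 0 in KO, where 1.30% and 1.10% of all genes were called. The part of the Schwann cell markers in the Il17rb values was not tested.

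None of the remaining 5 genes was called between IMQ and vehicle. Il17rc was at 8.19 and 8.71 CPM in WT IMQ and 8.36 and 7.76 CPM in KO IMQ ganglia, above the vehicle libraries of its genotype (0.20 ± 0.13 and 0.18 ± 0.13). Traf3ip2 was at 8.35 and 9.65 CPM and at 9.78 and 9.61 CPM (0.33 ± 0.16 and 0.22 ± 0.16). Il17re was at 0.597 and 0.564 CPM and at 0.495 and 0.382 CPM (-0.55 ± 0.41 and -0.70 ± 0.45), on 6 to 11 reads per library. Il17rd was at 7.27 and 8.52 CPM and at 9.10 and 10.5 CPM, inside the range of the vehicle libraries of each genotype. Zc3h12a was at 2.12 and 2.44 CPM in WT IMQ and at 3.28 and 1.72 CPM in KO IMQ ganglia, and KO IMQ 1 was again the higher library. Its KO log2 difference of 0.22 ± 0.27 turned to -0.32 without that library.

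In WT, the libraries of the 2 groups did not overlap for 7 of the 8 genes (all but Il17rd), where 21.5% of all genes did not overlap. In KO this held for 4 of 8, Il17ra, Il17rc, Traf3ip2 and Nfkbiz, where 23.8% of all genes did not overlap.

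**Figure D4:**
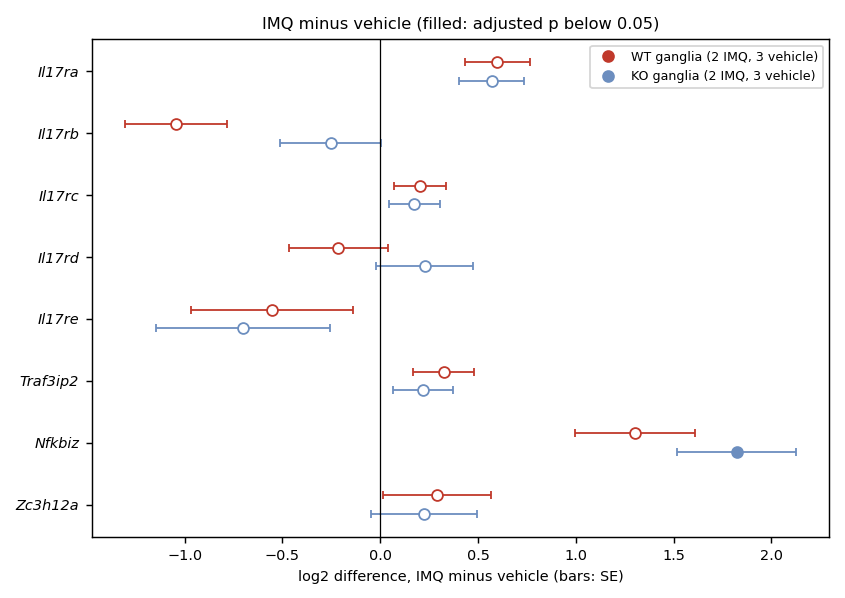
Log2 difference of each gene, IMQ minus vehicle ganglion (horizontal axis), with its SE, in WT (red) and KO (blue), with 2 IMQ and 3 vehicle libraries each. Nfkbiz in KO (1.82) was the 1 value that passed an adjusted p below 0.05 (filled), and Il17rb lay at -1.04 in WT and -0.25 in KO.

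Around the receptors, single genes were called with IMQ, where 1.30% of all genes were called in WT and 1.10% in KO. Of the 32 relay genes, 1 was called higher in WT and 2 in KO, and 23 and 20 had a positive difference. Their medians were 0.04 and 0.05, against -0.01 for all genes in both genotypes. Syk, which encodes a tyrosine kinase abundant in myeloid cells, rose by 1.51 ± 0.26 in WT (adjusted p = 0.0211) and 1.61 ± 0.26 in KO (adjusted p = 0.0183), and Ikbke, an IκB kinase-related gene whose product phosphorylates Act1, rose by 1.23 ± 0.24 in KO (adjusted p = 0.0481). Of the 16 inhibitors none was called in WT, where the highest difference was 1.21 and the smallest adjusted p 0.0705. In KO 1 was called higher, Usp18, an interferon-induced protease gene, by 1.64 ± 0.28 (adjusted p = 0.0223). Of the 12 other receptors and adaptors, Tnfrsf1b, a TNF receptor gene of leukocytes, rose by 1.25 ± 0.16 in WT and 1.22 ± 0.16 in KO, and Tlr7, the receptor for IMQ, by 1.42 ± 0.22 in KO. None of the genes on these lists was called in the difference of the IMQ effects between genotypes.

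Of 16 tested IL-17 target genes, 13 had a positive difference in WT and 8 in KO. In WT 2 were called higher and in KO 1, where 1.30% and 1.10% of all genes were called. Saa3, an acute phase gene, was at 0.126, 0.112 and 0 CPM in WT vehicle and 9.06 and 11.7 CPM in WT IMQ ganglia (6.95 ± 0.45, adjusted p = 0.000124), on 4 reads over the 3 vehicle libraries. KO ganglia were at 0.130, 0.049 and 0.0559 CPM with vehicle and 2.11 and 3.05 CPM with IMQ (4.98 ± 0.50, adjusted p = 0.00136). Since Saa3 passed the filter on low counts only through its reads in the IMQ libraries, these tests add nothing to the levels. Icam1 rose in WT from 4.22, 3.92 and 3.5 CPM to 6.89 and 9.90 CPM (1.11 ± 0.20, adjusted p = 0.0290). The median difference over the 16 was 0.45 in WT and 0.02 in KO. Between IMQ ganglia, KO minus WT, 3 of the 16 had a positive difference and the median was -0.69, but none was called. The 7 neutrophil markers stood lower too, with 0 of 7 positive, a median of -1.16 and sums of 95.2 and 121 CPM in WT IMQ against 29.2 and 74.1 CPM in KO IMQ ganglia. Their part in the target genes' values was not tested. S100a8 and S100a9 belong to both the target and the neutrophil lists, and KO vehicle 1 had the highest sum of the latter.

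The ligands were scarce. Il17a, the gene of the cytokine for which the family is named, had 0 reads in all 22 libraries, which allows a level of up to 0.00711 CPM over them (3 counts, for counting error only). Il17f had 3 reads over the 10 ganglion libraries and 55 over the 12 cultures, 21 of them in KO control culture 2. Il17c had 3 and 13 reads, and Il17b 68 and 124, spread over all libraries. Il17d, a family member widely expressed in tissues, was the highest at 1.46 to 4.15 CPM in ganglia and 3.97 to 7.22 CPM in cultures. It was higher in control culture than in vehicle ganglia by 1.07 ± 0.24 in WT (adjusted p = 0.000613) and 0.57 ± 0.24 in KO (adjusted p = 0.0404). Il25, whose product is the ligand of Il17rb, was at 0.617 to 1.36 CPM in ganglia and 0 to 0.776 CPM in cultures. It was lower in WT control cultures by a log2 difference of -2.45 ± 0.71 (adjusted p = 0.00477) and not called in KO. Il25 did not pass the filter on low counts in the fit of the 12 cultures. It entered this test through its ganglion reads, so the test adds nothing to the levels. With IMQ, none of the 3 ligands tested (Il17b, Il17d and Il25) was called in either genotype.

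**Figure D5:**
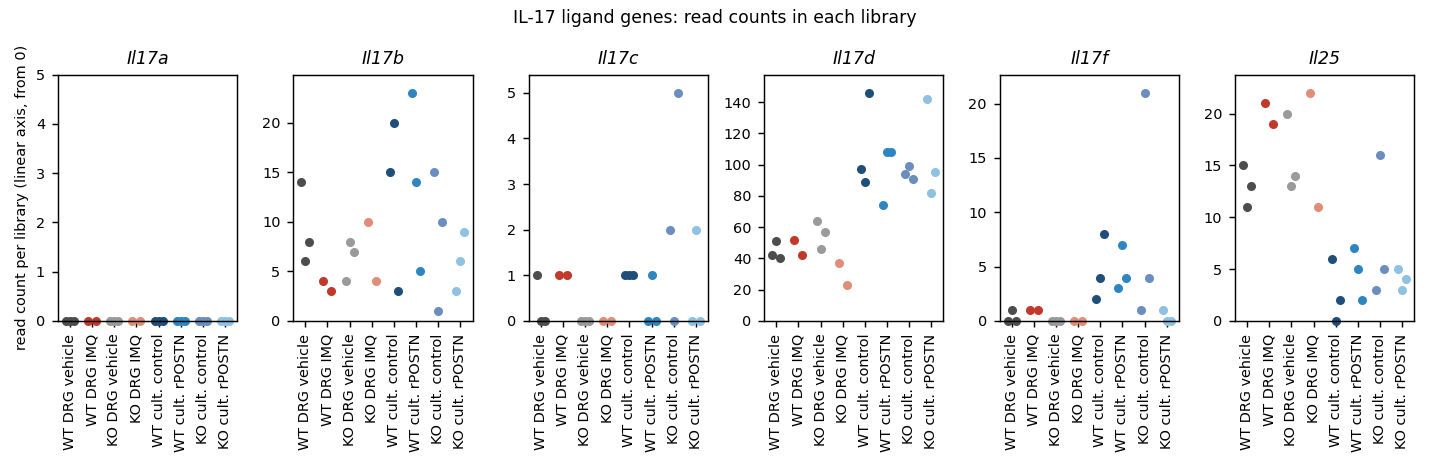
Read counts of the 6 IL-17 ligand genes (vertical axes, linear from 0, a scale of its own for each gene) in each of the 22 libraries, by group. Il17a was at 0 in every library, Il17f reached 21 reads in KO control culture 2, and Il17d was the most counted.

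In ganglia, genes of IL-23 and of T cells that make IL-17 summed to 14.2 to 18.8 CPM. Of these 16 genes, 6 passed the filter on low counts in ganglia, and none was called with IMQ in either genotype. In cultures the sum was 39.7 to 71.3 CPM, most of it from Sox13, a transcription factor gene that is not limited to T cells (64.1 CPM in WT control cultures against 9.52 CPM in WT vehicle ganglia). Of the 7 genes tested between control cultures and vehicle ganglia, 3 were higher and 2 lower in culture in WT, and 2 higher and 2 lower in KO. Cd3e, a defining T cell gene, was at 0 to 0.168 CPM in the 6 vehicle ganglia and 0.109 to 0.752 CPM in the 4 IMQ ganglia. The 8 T cell markers summed to 2.64 CPM in all 3 WT vehicle ganglia and 4.94 and 6.71 CPM with IMQ. All 5 tested had a positive difference in WT, and 1 was called, Cd8a of cytotoxic T cells (2.71 ± 0.43, adjusted p = 0.0147). In KO the 8 markers summed to 2.11 to 5.26 CPM with vehicle and 4.39 and 6.87 CPM with IMQ. Of the 5 tested there, 4 had a positive difference and none was called.

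KO against WT asks what the loss of Postn does. In vehicle ganglia none of the 8 genes was called (0.0116% of all genes were), and in IMQ ganglia none (0.00581%). The largest vehicle difference in size was that of Il17rb, at 4.11 ± 0.184 CPM in WT and 2.86 ± 0.867 CPM in KO (SD, n = 3 each). Its libraries did not overlap (6.92% of all genes did not), but the log2 difference of -0.51 ± 0.22 was not called. The other 7 genes overlapped, with log2 differences from -0.25 to 0.21. No label pairs the vehicle libraries of the 2 genotypes. Set side by side by number, Traf3ip2 was higher in KO in all 3 (7.24 and 8.76, 6.39 and 7.34, 7.93 and 8.89 CPM). So was Zc3h12a (2.02 and 2.27, 1.85 and 2.2, 1.73 and 1.96 CPM). Il17rb was lower in KO in all 3 (3.97 and 1.95, 4.32 and 3.67, 4.04 and 2.96 CPM). The share of all genes with the same direction in all 3 was not counted, so these are no result about the 8 genes. With the replicate block neither Traf3ip2 nor Zc3h12a was called (log2 differences of 0.21 and 0.20, adjusted p = 0.997 for both).
In IMQ ganglia the log2 differences ran from -0.40 (Il17re) to 0.52 (Nfkbiz), and 3 of the 8 genes did not overlap, near the 33.1% of all genes.

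Between control cultures, KO minus WT, none of the 7 genes tested was called, where 1.61% of 17519 genes were. Il17ra was at 35.3, 33.1 and 34.3 CPM in WT and 26.8, 28.2 and 25.7 CPM in KO, without overlap (-0.30 ± 0.10, adjusted p = 0.165), and it was the 1 gene of the 8 without overlap (29.6% of all genes). Nfkbiz was at 23.3, 28.1 and 24 CPM in WT and 27.6, 33.3 and 32.9 CPM in KO (0.37 ± 0.16, adjusted p = 0.261), with overlap between WT culture 2 and KO culture 1. In a fit of the 2 groups alone both were called (adjusted p = 0.0360 and 0.0470). That fit called 1355 of 16670 genes, against 282 of 17519 in the main fit. Of the relay genes Nfkb2 was lower in KO by a log2 difference of -0.37 ± 0.09 (adjusted p = 0.0492), and of the inhibitors Otud7b, a deubiquitinase gene, by -0.50 ± 0.09 (adjusted p = 0.0120). WT and KO cultures were counted in separate tables, so genotype and table cannot be told apart. WT cultures 1 and 2 also differed from the others in Xist, and the part of that difference was not tested.

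rPOSTN against control asks what added periostin does to the cultures. No gene was called in WT (0% of 16639, with 661 at an unadjusted p below 0.05) or KO cultures (0% of 16756, with 155), by edgeR or by DESeq2. With the replicate number as a block, 8 genes were called in WT cultures, none of them among the 8 described here. Nfkbiz had the largest difference in size in WT, at 23.3, 28.1 and 24 CPM in controls and 21.7, 24 and 21.5 CPM with rPOSTN (-0.17 ± 0.08, adjusted p = 0.999). In KO it was at 27.6, 33.3 and 32.9 CPM in controls and 22.2, 36.8 and 33.5 CPM with rPOSTN (-0.04 ± 0.19).

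Il17ra was at 35.6, 36.8 and 32.2 CPM with rPOSTN in WT (0.03 ± 0.06) and 25.6, 31 and 33 CPM in KO (0.13 ± 0.14). Groups overlapped for all 8 genes in both genotypes, where 9.24% of all genes in WT and 5.68% in KO did not overlap. Tested genes had log2 differences from -0.17 to 0.11 in WT (7 genes) and from -0.21 to 0.13 in KO (6 genes). Il17re passed the filter on low counts in neither culture fit, and Il17rb not in KO. The effects of rPOSTN in KO minus WT ranged from -0.25 (Traf3ip2) to 0.35 (Il17rb), and none was called (0% of 17519 genes, 342 at an unadjusted p below 0.05, and 0 by DESeq2).

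The genes with group profiles most like that of Il17ra were Specc1, a cytoskeletal gene, Mmp14, a membrane-bound matrix protease gene, and Piezo1, a mechanically gated channel gene. Their root mean square differences from Il17ra were 0.0837, 0.0878 and 0.0943 log2 units over the 8 centred group means, the smallest of 15244 genes compared. For Nfkbiz the nearest were Slc28a2, a nucleoside transporter gene (0.125), Tnfrsf1b (0.228) and Pilrb2 (0.264).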

How the data were processed

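The authors deposited raw read counts per Ensembl gene in 3 tables (ganglia, WT cultures, KO cultures), per the file headers. Per the labels' protocols, libraries were poly-A selected and kept strand by dUTP. HISAT2 2.1.0, Bowtie2 2.2.3 and TopHat2 are listed, with the build GRCm39, per the submitters' processing notes. The sources used here name no counting tool, strand setting or annotation. Symbols (55141 of the 55487 genes), exon lengths and neighbours came from GENCODE M21, which rests on another build.

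The 8 genes and all gene and marker lists were chosen with earlier results of these data known. Lists are described by counts and medians, without a test of the list. Tests used edgeR 4.0.16 (robust quasi-likelihood, two-sided) after filterByExpr and TMM. P-values were adjusted by Benjamini-Hochberg over the genes of each comparison, and calls were made below 0.05. The 10 ganglia, the WT cultures, the KO cultures, the 12 cultures and all 22 libraries each had a fit. The SE is the size of the log2 difference over the square root of F. The steps were tested on simulated data. Named outside the 8 genes were Postn, the 6 ligands, up to 4 called genes with the smallest p from a list in a comparison, and the 3 genes nearest to Il17ra and Nfkbiz. Actr8 was named as an overlapping gene, and Il1b, Tnf, Cd3e, S100a8, S100a9 and Xist after their values were seen. Reads carry no molecular identifiers, so intervals and floors cover counting error alone.

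Alternatives were edgeR's RLE scaling, no filter, a replicate block, a gene length trend as offset, DESeq2 1.42.0, the 2 compared groups alone, and each library left out. The labels do not say that replicate numbers pair samples. Residuals of same-numbered libraries correlated, across genes, at 0.41, 0.40 and 0.68 in WT cultures and 0.39, 0.72 and 0.64 in KO cultures. Between KO and WT vehicle ganglia they correlated at 0.87, 0.83 and 0.16. Between IMQ and vehicle ganglia they correlated at 0.75 and 0.76 in KO and 0.23 and 0.20 in WT. Some libraries of differing number correlated too: KO vehicle 2 with WT vehicle 3 at 0.72, and WT cultures 1 and 2 crosswise at 0.34 and 0.36. Pairing by number was therefore not established, and the block is an alternative only. Genes are not independent replicates. R 4.3.3 was used.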

Additional observations from a re-analysis of the deposited data

How the results depend on the processing

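Il17ra, Il17rc, Nfkbiz and Zc3h12a kept their calls between cultures and ganglia in both genotypes under every alternative run, and so did Il17rb in WT. Over all alternatives of the log2 differences of the 8 genes, 937 values kept their direction and side of the threshold, 50 reversed, 6 passed the threshold anew and 14 lost it. With IMQ in WT, 1 of the 8 genes (Nfkbiz) was called with no filter, by DESeq2 and with the 2 groups alone, against 0. With IMQ in KO, 0 were called with the 2 groups alone, and 0 to 1 with a library left out. Between control cultures, 2 were called with the 2 groups alone (Il17ra and Nfkbiz), against 0, in a fit that called 1355 of 16670 genes. The cause was not tested. Leaving out a library of the IMQ groups leaves 1 sample there, which is then assumed to vary like the other groups.

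Some uncalled differences changed sign. For the IMQ effect, KO minus WT, Il17rc was at 0.059 with the length offset. For KO against WT vehicle, Il17ra was at -0.0057 with no filter, and Nfkbiz at -0.016 with no filter and -0.0040 with the length offset. With 1 library left out, Zc3h12a with IMQ in KO ran from -0.32 to 0.62. The IMQ effect, KO minus WT, ran from -0.17 to 0.099 for Il17ra, -0.087 to 0.027 for Il17rc, -0.48 to 0.12 for Il17re, -0.21 to 1.00 for Nfkbiz and -0.61 to 0.33 for Zc3h12a. KO against WT ran from -0.069 to 0.083 for Il17ra, -0.088 to 0.0031 for Il17rc, -0.52 to 0.075 for Il17re and -0.067 to 0.040 for Nfkbiz with vehicle, and with IMQ from -0.16 to 0.11 for Il17ra, -0.21 to 1.00 for Nfkbiz and -0.41 to 0.53 for Zc3h12a. With rPOSTN, WT cultures ran from -0.0018 to 0.066 for Il17ra, -0.24 to 0.045 for Il17rb and -0.10 to 0.038 for Il17rc. KO cultures ran from -0.058 to 0.13 for Il17rc, -0.12 to 0.053 for Il17rd, -0.33 to 0.048 for Traf3ip2 and -0.19 to 0.15 for Nfkbiz. The rPOSTN effect, KO minus WT, ran from -0.10 to 0.91 for Il17rb, -0.0096 to 0.18 for Il17rc, -0.037 to 0.13 for Il17rd, -0.015 to 0.32 for Nfkbiz and -0.27 to 0.015 for Zc3h12a.

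With the replicate number as a block, no call of the 8 genes changed (Nfkbiz with IMQ in KO was at 1.76, adjusted p = 0.0362). The block called 280 genes with IMQ in WT, 239 in KO, 3 for KO against WT vehicle, 8 for rPOSTN in WT and 263 between control cultures.

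Counts over all genes moved by more than 1.5 times in several settings. With IMQ in WT, DESeq2 called 358 genes and leaving out a library 82 to 160. With IMQ in KO, the 2 groups alone gave 58 and leaving out a library 56 to 165. The difference of the IMQ effects had 2 calls with no filter, 1 with the length offset, 5 by DESeq2 and 0 to 1 with a library left out. KO against WT vehicle had 22 with no filter, 4 with the offset, 30 by DESeq2, 1 in the 2 groups alone and 0 to 2 with a library left out, and KO against WT IMQ had 2 with no filter, 4 by DESeq2, 5 in the 2 groups alone and 0 to 1 with a library left out. rPOSTN in WT had 2 calls with no filter. Control cultures, KO against WT, had 663 with no filter, 456 with the offset, 717 by DESeq2, 1355 in the 2 groups alone and 24 to 97 with a library left out. Depth limits Il17re (0 to 19 reads per library), Il17rb in cultures (2 to 14) and the ligands Il17a, Il17c and Il17f.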
